A study of Homo sapiens with 3 samples.

Results

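Of the 26970 ETS1 peaks of the pooled list from SCC25 cells, 1811 (6.71%, 95% Wilson interval 6.42 to 7.02%) lay in intergenic sequence far from coding genes, and these far intergenic peaks are described here. A peak was taken as far intergenic where its midpoint was on chromosomes 1 to 22 or X, over 1500 bp from any transcription start site (TSS) of GENCODE release 44, outside every gene body, and at least 50 kb from the nearest TSS of a canonical protein-coding transcript. In addition, it overlapped none of the 1900 highest-ranked H3K27Ac enhancers that the study called in the same cells, so that super-enhancers were left out. The rule used the positions of the peaks and the H3K27Ac rank of the enhancers, and no ETS1 signal. SCC25 is an established line derived from a human tongue squamous carcinoma, and all 3 ChIP-Seq samples came from untreated cells of this 1 line. The C20 antibody was used in 2 samples and the 501A antibody in 1, and both are directed against ETS1. The deposited peaks are the consensus of the 3 samples and carry a chromosome, a start and an end, with no signal, summit or value per sample. For this reason the antibodies could not be compared, no spread between replicates was available, and the depth behind a peak is unknown. All intervals and p-values below cover the counting of peaks only, and peaks are not replicates of a condition.

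ETS1 is the founding member of the ETS family of transcription factors, which bind DNA around a GGAA core and often act at enhancers together with AP-1, the dimer of FOS and JUN proteins. Enhancers can lie far from the genes they regulate and are brought to promoters by looping of the chromatin. The nearest coding gene of a distant peak is therefore a landmark, and not necessarily its target.

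The central bases of 7 far intergenic peaks are shown as examples, picked for particular features and not as typical peaks. All are 200 bases of the plus strand of hg19, read 5′ to 3′. The first set is shown for the pairing of an ETS core (AGGAAG or AGGAAA) with an AP-1 motif (TGAGTCA or TGACTCA), both searched on either strand, and holds the 3 earliest peaks of the list with at most 20 bp between them. Capitals mark ETS cores, the high-affinity ETS form CCGGAA, and AP-1 motifs. The first lies at chr13:30277233-30277432, and its AP-1 motif and ETS core abut. Its nearest coding gene is SLC7A1, a cationic amino acid transporter, at 107.5 kb. The second, at chr16:65692240-65692439, has 14 bases between the motifs, with CDH11, a mesenchymal cadherin, as its nearest coding gene at 536 kb. The third, at chr12:90647609-90647808, has 20 bases between them, is nearest to the calcium pump gene ATP2B1 at 545 kb, and also holds CCGGAA on each strand. In the sequence labels here and below, near names the nearest coding gene at any distance.
Far peak near SLC7A1: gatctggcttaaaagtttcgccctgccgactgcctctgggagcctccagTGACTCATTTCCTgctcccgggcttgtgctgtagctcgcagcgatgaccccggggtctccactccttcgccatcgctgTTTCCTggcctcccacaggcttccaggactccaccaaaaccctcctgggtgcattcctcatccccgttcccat
Far peak near CDH11: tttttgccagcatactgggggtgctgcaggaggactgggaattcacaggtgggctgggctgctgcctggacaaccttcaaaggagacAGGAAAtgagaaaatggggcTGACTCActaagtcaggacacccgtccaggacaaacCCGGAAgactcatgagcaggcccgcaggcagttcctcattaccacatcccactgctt
Far peak near ATP2B1: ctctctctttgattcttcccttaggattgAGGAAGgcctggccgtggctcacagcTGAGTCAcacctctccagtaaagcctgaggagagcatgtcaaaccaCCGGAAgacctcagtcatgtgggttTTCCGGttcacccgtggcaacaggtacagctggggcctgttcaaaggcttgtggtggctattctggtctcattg

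The second set is shown for the other kinds of center found among the far peaks. The peak farthest from a coding TSS, at chr2:91670195-91670394, and the earliest in the list with a CpG island-like center, at chr7:409388-409587, have each CG dinucleotide in capitals, with 28 and 22 of them in the 200 bases. The former holds the 8 bases cggctttt 6 times. A peak with a CTCF core in these central bases, at chr3:181900458-181900657 and nearest to the squamous lineage factor SOX2 at 471 kb, has that core and an ETS core in capitals. One with a p53/p63 pair, which is 2 copies of CATG 6 bases apart, lies at chr17:14641636-14641835, 437 kb from the heparan sulfate sulfotransferase gene HS3ST3B1. There the pair is in capitals, and an AP-1 motif lies within it, as at 3 of the 55 p53/p63 pairs counted at far peaks.
Farthest from a coding TSS: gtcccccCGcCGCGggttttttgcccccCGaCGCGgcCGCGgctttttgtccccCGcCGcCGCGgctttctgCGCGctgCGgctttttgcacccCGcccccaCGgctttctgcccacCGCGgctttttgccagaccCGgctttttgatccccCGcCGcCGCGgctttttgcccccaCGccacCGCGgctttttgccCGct
CpG island-like center near FOXL3: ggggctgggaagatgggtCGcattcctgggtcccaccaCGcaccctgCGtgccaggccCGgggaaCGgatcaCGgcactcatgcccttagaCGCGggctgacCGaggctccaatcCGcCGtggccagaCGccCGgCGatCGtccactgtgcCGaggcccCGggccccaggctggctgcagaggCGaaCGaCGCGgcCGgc
CTCF core nearest to SOX2: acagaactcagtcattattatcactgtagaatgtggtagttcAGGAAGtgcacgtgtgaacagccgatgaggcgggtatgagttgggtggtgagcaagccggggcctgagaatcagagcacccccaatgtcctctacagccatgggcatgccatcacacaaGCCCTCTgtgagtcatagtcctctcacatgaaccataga
p53/p63 pair near HS3ST3B1: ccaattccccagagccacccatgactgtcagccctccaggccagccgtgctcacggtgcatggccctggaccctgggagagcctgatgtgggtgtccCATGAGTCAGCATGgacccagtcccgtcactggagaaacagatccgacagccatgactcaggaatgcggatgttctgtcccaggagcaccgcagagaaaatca

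The far intergenic peaks were what remained of 5144 intergenic peaks over 1500 bp from a TSS. Of these, 2297 were at least 50 kb from a canonical coding TSS, and 486 of them overlapped one of the ranked enhancers. The remaining 1811 covered 1.33 Mb in all. Their widths ran from 228 to 3773 bp with a median of 608 bp, against a median of 969 bp for the whole list, and 4 were over 3 kb wide. Their distance to the nearest canonical coding TSS had a median of 124 kb (quartiles 79.3 and 226 kb). The nearest TSS of any kind was closer, at a median of 24.9 kb, and belonged to a long noncoding RNA for 835 of them (46.1%, 43.8 to 48.4%) and to a protein-coding gene for 234 (12.9%, 11.5 to 14.5%). Long noncoding RNA starts within 10 kb were the nearest TSS for 196 peaks (10.8%, 9.47 to 12.3%). Of the 1811 peaks, 897 (49.5%, 47.2 to 51.8%) lay upstream of the nearest coding TSS and the rest downstream. The peaks just inside the distance limit were 50018, 50073 and 50124 bp from LMTK2, TFAM and DDX3X, and those just outside were 49978, 49975 and 49972 bp from RB1CC1, HS6ST1 and UBAC2.

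Intergenic ETS1 peaks became sparser with distance from coding genes, and the far peaks were spread over a large territory. The sequence that met the positional rule amounted to 719.5 Mb, or 25.4% of the genome without gaps, and held 6.72% of the peaks on these chromosomes. This gave 2.52 far peaks per Mb (95% Poisson interval 2.40 to 2.64), against 6.96 per Mb (6.66 to 7.28) for the intergenic sequence within 50 kb and 9.51 per Mb for all peaks over the genome. Within the far peaks, 699 lay 50 to 100 kb from a coding TSS, at 5.21 per Mb (4.83 to 5.61). The density was 3.66 per Mb at 100 to 200 kb, 1.997 at 200 to 500 kb and 0.762 at 500 to 1000 kb, and the intervals of these neighbors did not overlap. Beyond 1000 kb there were 13 peaks in 76.0 Mb, or 0.171 per Mb (0.0911 to 0.292). In all, 547 far peaks (30.2%, 28.1 to 32.4%) were 200 kb or more from a coding TSS, and 121 (6.68%, 5.62 to 7.93%) were 500 kb or more.

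**Figure D1:**
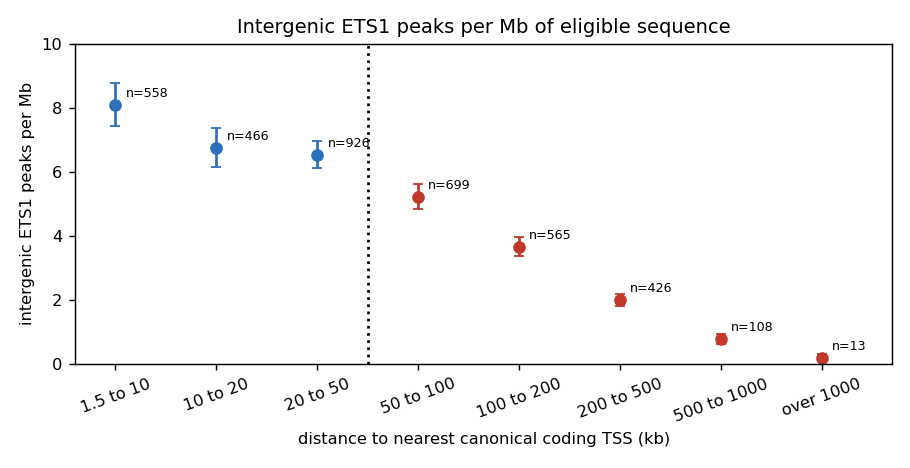
Intergenic ETS1 peaks per Mb of sequence without gaps that met the rule (vertical axis) by distance to the nearest canonical coding TSS in kb (horizontal axis), with 95% Poisson intervals as bars, the number of peaks beside each point, near peaks in blue and far peaks in red, parted by the dotted line. The density fell from 8.08 per Mb at 1.5 to 10 kb to 0.171 per Mb beyond 1000 kb.

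The 5 peaks farthest from a coding TSS lay in gene deserts or near assembly gaps. On chromosome 2, peaks at chr2:91669857-91670732 and chr2:90449485-90450023 were 2679 and 1459 kb from RPIA, an enzyme of the pentose phosphate pathway, and 74.8 and 78.0 kb from an assembly gap. Both centers were rich in CpG, with 69.3 and 69.8% GC and an observed over expected CpG ratio of 1.27 and 1.23, and neither held an ETS core. The peak at chr4:180545982-180546416 lay 2183 kb from AGA, a lysosomal hydrolase, and that at chr2:147149601-147150210 lay between ZEB2, a repressor that drives EMT, at 1872 kb and the activin receptor gene ACVR2A at 1453 kb. The fifth, at chr8:138161279-138161637, was 1348 kb from FAM135B. The last 3 had 44.2 to 54.3% GC and held an ETS core, and the next peak of the list was 1384 to 1533 kb away from each.

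The density of far peaks differed between chromosomes. It was highest on chromosomes 22, 20 and 17, at 6.86 (4.66 to 9.73), 6.05 (4.80 to 7.52) and 5.10 per Mb (3.75 to 6.78), and the intervals of these 3 overlapped. The lowest were chromosome X at 0.666 (0.469 to 0.918) and chromosome 4 at 0.916 (0.692 to 1.19), whose intervals also overlapped. Chromosome 2 held the most far peaks, 194, at 3.17 per Mb, and chromosome 19 the fewest, 8, in 3.89 Mb of eligible sequence. As a share of a chromosome's own peaks, far peaks ranged from 0.558% of 1433 on chromosome 19 to 11.7% of 443 on chromosome 13.

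**Figure D2:**
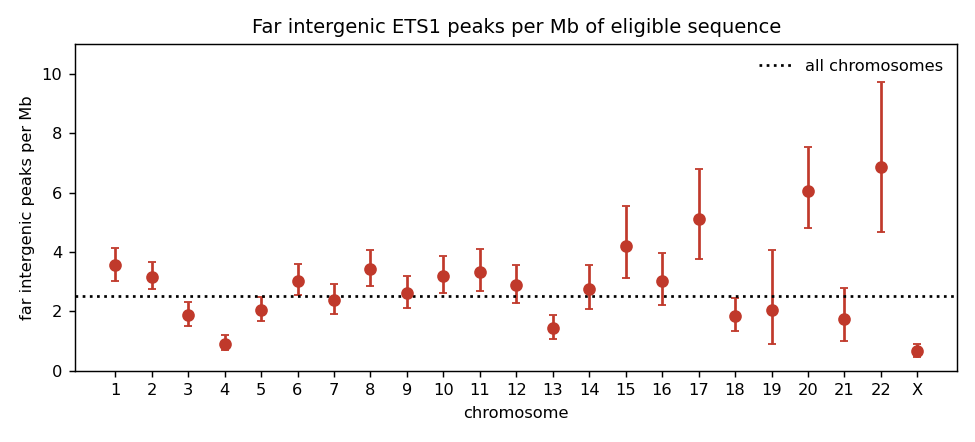
Far intergenic ETS1 peaks per Mb of eligible sequence (vertical axis) for each chromosome (horizontal axis), as points with 95% Poisson intervals, with the value over all chromosomes, 2.52 per Mb, as a dotted line. Among the chromosomes whose intervals do not reach the line are 17, 20 and 22 above it and 4 and X below it.

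The far peaks were next compared with the 1950 near intergenic peaks, which met the same rule except that they lay within 50 kb of a canonical coding TSS. Far peaks were narrower and more isolated. A width above the median of the whole list was found for 399 far peaks (22.03%, 20.2 to 24.0%) and 620 near peaks (31.8%, 29.8 to 33.9%), an odds ratio of 0.606 (two-sided Fisher's exact test, Benjamini-Hochberg over 6 properties, adjusted p = 5.04e-11). The next peak of the list was within 10 kb for 597 far peaks (33.0%, 30.8 to 35.2%) and 1024 near peaks (52.5%, 50.3 to 54.7%, adjusted exact p = 4.26e-33). The median distance to the next peak was 23.3 kb for far and 9.11 kb for near peaks, and 320 far peaks (17.7%, 16.0 to 19.5%) had none within 100 kb. The next peak could be of any class, and 11685 peaks of the list lay within 500 bp of a TSS. Near peaks are closer to coding TSSs by the rule, so the difference in isolation is not independent of it. The part of the rule in this difference was not tested. CpG island-like centers, with at least 50% GC and a CpG ratio of at least 0.6 over 600 bp, made up 5.74% (4.76 to 6.91%) of far and 10.8% (9.47 to 12.2%) of near peaks (adjusted exact p = 4.76e-08). A super-enhancer lay within 100 kb of 242 far peaks (13.4%, 11.9 to 15.0%) and 349 near peaks (17.9%, 16.3 to 19.7%, adjusted exact p = 0.000164). Peaks inside super-enhancers and over 1500 bp from any TSS lay a median of 32.0 kb from a coding TSS. The difference in super-enhancers is therefore not independent of the rule either. The part of the rule in it, and in that of CpG island-like centers, was not tested.

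An assembly gap of 1 kb or more lay within 100 kb of 74 far peaks (4.09%, 3.27 to 5.10%) and 36 near peaks (1.85%, 1.34 to 2.55%), an odds ratio of 2.27 (adjusted exact p = 8.94e-05). The median distance to a gap over all peaks of each set was 5688 kb for far and 4856 kb for near peaks. By contrast, the share at positions 1 to 13485, the earlier part of the list, did not pass the test, at 37.8% (35.6 to 40.1%) of far and 39.3% (37.2 to 41.5%) of near peaks (odds ratio 0.938, adjusted exact p = 0.348). What orders the list is not given in the sources used here. The far peaks near gaps had a median width of 835 bp and held an ETS core in 60 of 74 cases, against 600 bp and 1518 of 1737 for the others, and the part of gaps in the other values was not tested.

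Many far peaks stood in groups. Chaining those under 50 kb apart gave 851 single peaks (47.0%, 44.7 to 49.3%) and 343 groups of 2 or more, of which 30 had at least 5 peaks and together held 197 far peaks (10.9%, 9.53 to 12.4%). The largest group had 18 far peaks over 190 kb at chr11:69213148-69402933, ending 52990 bp upstream of CCND1, which encodes cyclin D1, the partner of CDK4 and CDK6 in the G1 phase. The span held 22 peaks of the whole list, and those beyond the 18 did not meet the rule. The widths of the 18 ran from 293 to 2985 bp (median 1030 bp), and the nearest super-enhancer was 15.0 kb away. Of these 18 peaks, 10 held an ETS core, 10 an AP-1 motif and 15 the E-box CACCTG in the central 600 bp. The E-box was present in 49.5% of all far peaks. The median GC content was 57.9% in this group and 51.7% at all far peaks, and its part in these counts was not tested.

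The next groups to be described were smaller. A group of 11 at chr3:193523311-193601820 lay 252 kb before HES1, a repressor that responds to Notch, and on its other side 212 kb from OPA1, which fuses mitochondria. It held 10 peaks with an ETS core and 7 with AP-1. A group of 9 at chr15:70719741-70819222, between the corepressor gene TLE3 and UACA, had the second earliest far peak of the list. In the group of 9 at chr8:143068876-143113015 between C8orf90 and TSNARE1, a SNARE domain gene, the peaks were wide, from 894 to 3660 bp, and 6 held an ETS core and 1 an AP-1 motif. For comparison, 87.1% of all far peaks held an ETS core and 43.6% an AP-1 motif. None of these groups, nor that at CCND1, had a super-enhancer within its span. Peaks that overlap a super-enhancer were left out by the rule, so this absence is not independent of it.

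**Figure D3:**
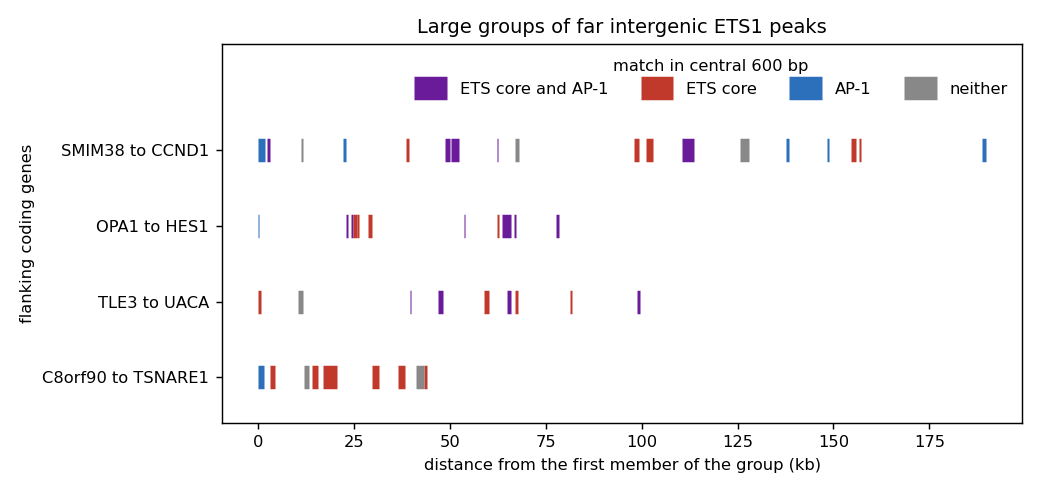
Large groups of far intergenic ETS1 peaks, 4 in number, 1 per line and named by the flanking coding genes, with each peak drawn to its width at its distance in kb from the first peak of the group (horizontal axis) and colored by the motifs in its central 600 bp. The 18 far peaks upstream of CCND1 span 190 kb, and the 9 between C8orf90 and TSNARE1 are packed into 44.1 kb. Peaks of the list that are not far peaks are not drawn.

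The 5 widest far peaks were 2985 to 3773 bp wide and included no CpG island-like center. The widest, at chr20:48899167-48902939, lay 93.7 kb from CEBPB, a bZIP factor of differentiation and inflammation, and 225.9 kb from the phosphatase gene PTPN1. Others lay between SHANK2 and DHCR7 at chr11:71052628-71056199 (3572 bp), 50.7 kb from the WNT antagonist gene NKD2 at chr5:956660-959817 (3158 bp), and within the groups at TSNARE1 (3660 bp) and CCND1 (2985 bp). All 5 held an ETS core and an E-box. The 5 earliest of the list were at positions 15, 37, 68, 82 and 117. The first of them, 2096 bp wide at chr7:408440-410535, lay 79.4 kb from FOXL3 and 150.0 kb from PDGFA, a ligand of the PDGF receptor, and had 70.0% GC. The other four had 48.8 to 60.2% GC and lay nearest to UACA, SLC7A1, ANKRD30A and CDH11. All 5 of the earliest held an ETS core, and those at UACA, SLC7A1 and CDH11 held an AP-1 motif as well.

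By nearest canonical coding TSS, the far peaks fell on 993 of 19812 coding genes (5.01%), and 600 of these genes had a single far peak. At the other end, 56 genes had 5 or more and together took 365 far peaks (20.2%). Among the genes with most were CCND1 with 18 (53.5 to 242 kb from its TSS) and BCL11B, a zinc finger factor of T cell and epithelial development, with 14 (138 to 978 kb). TSNARE1 followed with 11, then the testis actin-like gene ACTL7B with 10, and C8orf90 and the receptor phosphatase gene PTPRU with 9. IGFBP3, which binds insulin-like growth factors, the homeobox gene IRX2 and UACA had 8 each. All 14 far peaks at BCL11B held an ETS core and 4 an AP-1 motif, whereas at ACTL7B 7 of 10 held an ETS core and 5 an AP-1 motif.

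Lists of genes of squamous identity, EMT and signaling were then looked up among the nearest coding genes. A gene can be counted only where it is the closest to intergenic sequence at least 50 kb from every coding TSS. The 5.01% of all coding genes is therefore no matched background for such lists. Of 16 genes listed for the TGF-beta pathway, BMP ligands included, 7 were nearest to a far peak, with 21 peaks in all, beside the 5.01% of all coding genes. They were the ligand genes BMP7 (4 peaks, 190 to 278 kb from the TSS), BMP2 (3, 107 to 116 kb), INHBA (3, 253 to 513 kb) and TGFB2 (3, 241 to 399 kb), the inhibitory factor SMAD6 (4, 100.9 to 181 kb), and SMAD2 and SMAD7 with 2 each. TGFB1, the TGF-beta receptors and SMAD3 had none. Of 15 squamous lineage factors, 5 were nearest to a far peak: KLF4 (58.8 to 406 kb), SOX2 (175 to 501 kb) and TFAP2A (59.7 to 67.2 kb) with 3 peaks each, and KLF5 and TFAP2C with 1. Among 10 EMT factors there were 3, namely SOX9 with 5 peaks 135 to 220 kb from its TSS, TWIST2 with 2 and ZEB2 with 1, and none at SNAI2.

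The ETS1 gene itself was the nearest coding gene of 3 far peaks, 226 to 548 kb from its TSS, and of 14 ETS family genes EHF and ETV1 had 1 each. Among 13 mesenchymal and matrix genes, COL5A1 (1929 bp wide, 138 kb) and FN1 (309 bp, 92.7 kb), which encode a fibrillar collagen and fibronectin, had 1 far peak each. Of 10 genes of the EGFR family and its ligands, BTC had 1, and none of 9 AP-1 family genes had any. These lists are short, and no test was made of them.

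Sequence at the far peaks was then set against windows of 600 bp centered 5000 bp downstream, for the 1755 far peaks whose downstream window was free of peaks and gaps. Motifs of ETS1 and AP-1 were both more frequent at the peaks. An ETS core was present in 87.4% (85.7 to 88.8%) of peak windows and 77.4% (75.4 to 79.3%) of downstream windows, with 344 pairs holding it only at the peak and 170 only downstream (odds ratio 2.02, two-sided exact McNemar test, Benjamini-Hochberg over 12 motifs, adjusted p = 3.94e-14). For CCGGAA the shares were 12.8% (11.3 to 14.4%) and 5.41% (4.45 to 6.57%, odds ratio 2.48, adjusted exact p = 1.95e-13). The largest difference among the 12 was that of AP-1, at 43.6% (41.3 to 45.9%) against 9.86% (8.55 to 11.3%), with 698 pairs holding it only at the peak and 106 only downstream (odds ratio 6.58, adjusted exact p = 1.49e-106). Over all peaks of the list, windows of the same length held an ETS core in 79.2%, CCGGAA in 26.0% and AP-1 in 25.2%.

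The base composition differed as well, with a median of 51.7% GC at far peaks (range 33.7 to 76.7%) and 44.3% downstream. Among pairs whose GC content differed by at most 5 percentage points, 599 in number, ETS cores (87.1 against 78.6%, adjusted exact p = 0.000477), CCGGAA (12.2 against 7.01%, adjusted exact p = 0.0168) and AP-1 (47.9 against 10.2%, adjusted exact p = 3.38e-43) were still more frequent at the peaks. Other motifs that were more frequent at the peaks over all pairs lost the call or turned in these GC-limited pairs. The SP/KLF motif GGGCGG (22.96 against 9.74% over all pairs, adjusted exact p = 3.34e-27) reached an adjusted exact p of 0.610 there. The CTCF core, searched as AGNNGGC with the middle bases limited to AG, AT, GG or GT (45.0 against 29.7%, adjusted exact p = 1.60e-20) also reached 0.610. The TEAD motif GGAATG, which overlaps the GGAA of an ETS core (37.5 against 32.0%, adjusted exact p = 0.00137), reached 0.579. The E-box CACCTG, bound by SNAI and ZEB factors, went from 49.2 against 43.99% (adjusted exact p = 0.00292) to 47.2 against 54.6% (adjusted exact p = 0.0406), and thus turned. FOX motifs (TGTTTAC or TATTTAC) were less frequent at the peaks over all pairs (12.1 against 17.5%, adjusted exact p = 1.10e-05) and not in the GC-limited ones (13.4 against 12.02%, adjusted exact p = 0.652).

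The remaining 4 motifs did not pass the test against the downstream windows. RUNX (TGTGGT) was present in 39.2 and 38.5% (adjusted exact p = 0.705), GRHL (AACNNGTT) in 8.38 and 7.69% (adjusted exact p = 0.596) and the p53/p63 pair in 3.13 and 3.48% (adjusted exact p = 0.695). Tandem runs of 4 or more GGAA were rare, with 5 far peaks against 10 downstream windows (adjusted exact p = 0.402), and 4 of the 5 had at least 8 copies. Over all peaks of the list, these 4 and the 5 of the paragraph above were present in 29.9% (RUNX), 6.30% (GRHL), 1.80% (p53/p63 pair), 0.0705% (GGAA runs), 51.5% (SP/KLF), 51.9% (CTCF core), 29.6% (TEAD), 48.0% (E-box) and 8.29% (FOX).

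**Figure D4:**
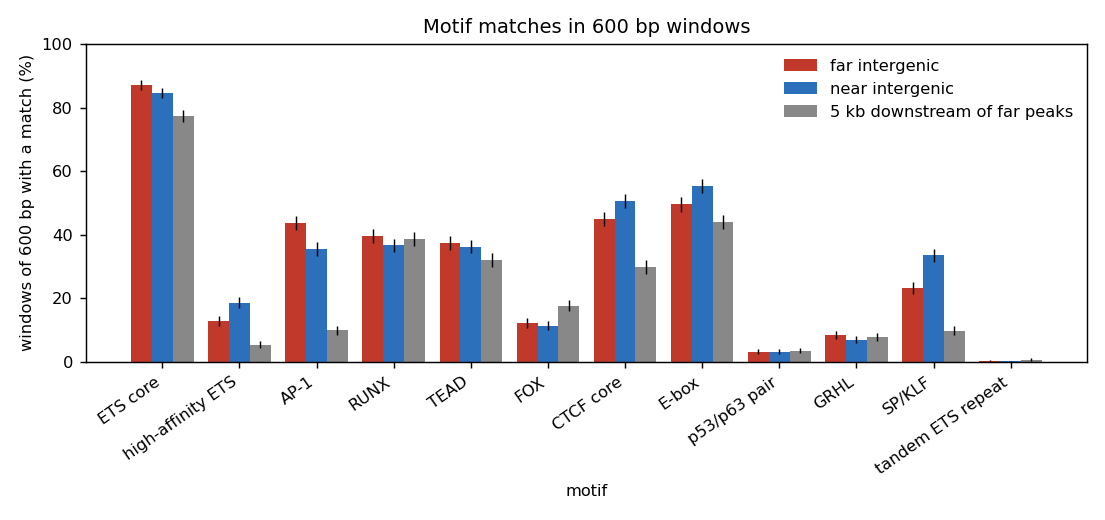
Share of 600 bp windows with a match (vertical axis, percent) for each of 12 motifs (horizontal axis) at 1811 far intergenic peaks (red), 1950 near intergenic peaks (blue) and 1755 windows 5 kb downstream of far peaks (gray), with 95% Wilson intervals as lines. AP-1 stands at 43.6% of far peaks, 35.5% of near peaks and 9.86% of downstream windows.

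Against the near intergenic peaks, AP-1 was the 1 motif of 12 that passed the test as more frequent at far peaks. It was present in 789 of 1811 far peaks (43.6%, 41.3 to 45.9%) and 692 of 1950 near peaks (35.5%, 33.4 to 37.6%), an odds ratio of 1.40 (Fisher's exact test, Benjamini-Hochberg over 12 motifs, adjusted p = 2.71e-06). The ETS core reached 87.1 and 84.7% and did not pass the test (odds ratio 1.23, adjusted exact p = 0.0625). Motifs that contain CpG or are rich in G and C were less frequent at far peaks, namely SP/KLF (23.2 against 33.5%, adjusted exact p = 3.36e-11), CCGGAA (12.7 against 18.5%, adjusted exact p = 3.91e-06), the CTCF core (44.9 against 50.5%, adjusted exact p = 0.00163) and the E-box (49.5 against 55.3%, adjusted exact p = 0.00125). The near peaks had a higher median GC content, 53.8%. Among peaks of 50 to 55% GC, a class chosen after the data had been seen with 571 far and 618 near peaks, AP-1 kept its difference (46.8 against 38.0%, odds ratio 1.43, adjusted exact p = 0.0325). None of the other 11 motifs passed the test there, with adjusted exact p from 0.163 for SP/KLF upward.

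Both ETS and AP-1 matches were centered on the midpoints of the far peaks. In bins of 100 bp, an AP-1 motif was present in 12.9 and 12.3% of far peaks in the bins on either side of the midpoint and in 1.82 and 2.43% in the outermost bins, 1900 to 2000 bp away. For near peaks the central bins had 9.33 and 9.38%. ETS cores went from 32.5 and 31.6% at the center of far peaks to 22.03 and 23.4% in the outermost bins, and CCGGAA from 3.20 and 3.31% to 1.05 and 0.994%. Of the far peaks, 632 had a single AP-1 motif within 600 bp and 157 had 2 or more, whereas 465 had a single ETS core and 1113 had 2 or more.

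**Figure D5:**
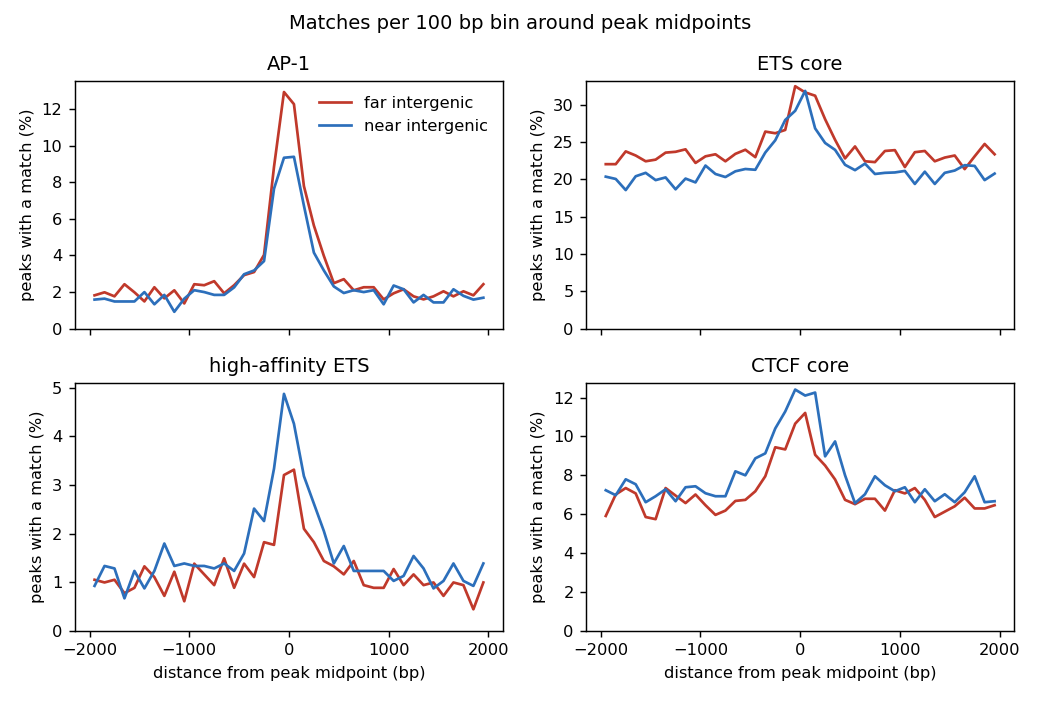
Share of peaks with a match (vertical axis, percent) in bins of 100 bp by distance from the peak midpoint in bp (horizontal axis), for AP-1, the ETS core, the high-affinity ETS form and the CTCF core, with far intergenic peaks in red and near intergenic peaks in blue. AP-1 reaches 12.9% at the center of far peaks and 9.38% at the center of near peaks, and the high-affinity ETS form 3.31 and 4.87%.

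The 2 motifs also occurred side by side, as in the first set of sequences. An ETS core with at most 20 bp to an AP-1 motif was found in 161 of the 1755 far peaks with a pair (9.17%) and in 35 of the downstream windows (1.99%), with 160 pairs holding it only at the peak and 34 only downstream (odds ratio 4.71, exact McNemar test, p = 9.62e-21, a test chosen after the data had been seen). The difference from near peaks did not pass a test, at 9.28% (8.03 to 10.7%) of far and 7.69% (6.59 to 8.96%) of near peaks (odds ratio 1.23, Fisher's exact test, p = 0.0889). Of 690 far peaks with both motifs apart from each other, the closest pair abutted in 20 (2.90%), was 1 to 20 bp apart in a further 148, and was over 100 bp apart in 235 (34.1%). Of 134 downstream windows with both, the closest pair abutted in 2 (1.49%), was 1 to 20 bp apart in a further 33, and was over 100 bp apart in 62 (46.3%). At most 20 bp separated the closest pair in 168 of 690 far peaks with both motifs (24.3%) and 35 of 134 downstream windows (26.1%). It was 21 to 50 bp apart in 156 (22.6%) and 14 (10.4%), and 51 to 100 bp apart in 131 (19.0%) and 23 (17.2%). Once both motifs were present, spacing of at most 20 bp was thus no more frequent at far peaks, whereas spacing of 21 to 50 bp was. These differences in spacing were not tested. The 20 abutting pairs read AGGAAATGAGTCA in 6 far peaks, AGGAAATGACTCA in 5, AGGAAGTGACTCA in 5 and AGGAAGTGAGTCA in 4, with the ETS core before the AP-1 motif on 1 of the strands.

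All 6-mers were also compared, with both strands merged. Against the downstream windows, 808 (38.8% of those tested) were more frequent at far peaks and 663 (31.9%) less frequent (exact McNemar test, adjusted p of at most 0.05). The largest odds ratios were those of 6-mers with CpG: CCGCGG (7.64), CGCGGC (7.56), CCGCCG (7.05), CGCGGA (6.55) and AGCGCG (5.61), each at 4.33 to 8.38% of the peaks. In the GC-limited pairs, CCGCCG passed the test (3.86) and the other 4 of these 5 did not (odds ratios 1.90 to 2.67, adjusted exact p from 0.266 to 0.444). The smallest were ATATAT (0.203), ATATAC (0.239) and CATATA (0.253). Of the 48 6-mers that contain GGAA, 27 were more and 4 less frequent at far peaks. In the GC-limited pairs 52 were more and 65 less frequent, and the largest odds ratio was that of GAGTCA, which is part of the AP-1 motif (60.8 against 27.5%, odds ratio 4.02, adjusted exact p = 4.50e-26), with 7 of the 52 and none of the 65 holding GGAA.

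Against the near peaks, 365 6-mers (17.5% of those tested) were more frequent at far peaks and 286 (13.8%) less frequent (Fisher's exact test, adjusted p of at most 0.05). The largest odds ratios were ATACGA (2.01), ATCGAT (2.01), CTATAC (1.81), TACGAA (1.79) and ATATCA (1.78), and the smallest CGCGAA (0.435), CGCGCC (0.454) and CGCGAG (0.468). Of the 286 that were less frequent, 268 had 4 or more G or C and 198 contained CpG. Among peaks of 50 to 55% GC, 1 was more and 1 less frequent.

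The far peaks varied among themselves in the same measures. With growing distance from a coding TSS, from 50 to 100 kb through 100 to 200 kb to 200 kb or more, AP-1 motifs were present in 40.3% (36.8 to 44.02%), 44.6% (40.6 to 48.7%) and 46.6% (42.5 to 50.8%), and the intervals overlapped. CCGGAA went from 15.2% (12.7 to 18.0%) to 11.5 and 10.8% (8.45 to 13.7%) and SP/KLF from 26.5% to 21.6 and 20.7%. The 685 far peaks at positions 1 to 13485 of the list held an ETS core in 89.8% (87.3 to 91.8%) and AP-1 in 48.6% (44.9 to 52.4%), and the 1126 at later positions in 85.5% (83.3 to 87.5%) and 40.5% (37.7 to 43.4%). The median widths of these 2 sets were 719 and 548.5 bp.

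The 104 far peaks with a CpG island-like center stood apart from the rest. They were wider (median 986.5 against 590 bp), and 74 of them (71.2%, 61.8 to 79.0%) held an SP/KLF motif against 20.3% of the other 1707. AP-1 was present in 9 of the 104 (8.65%, 4.62 to 15.6%) and in 45.7% (43.3 to 48.1%) of the others, and CCGGAA in 26 (17.7 to 34.1%) and 11.95% of the others. An ETS core was found in 79.8% (71.1 to 86.4%) and 87.6% (85.9 to 89.1%). CpG content entered the choice of these 104 peaks, so that motifs with CpG are no separate observation there.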

How the data were processed

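Per the labels and the methods of the study, reads of 3 ETS1 ChIP samples of SCC25 cells were mapped to hg19 with Bowtie 1.1.1 (SAMtools 1.3 is also named), peaks were called with MACS2 against input, and the authors deposited 1 IDR consensus list of positions with no measured unit. Only positions and widths were therefore used. Enhancer intervals were the study's ranked H3K27Ac list, used for overlap alone. TSSs (253343 transcripts, 19819 canonical coding TSSs) came from GENCODE release 44 on GRCh37, the same nuclear sequence as hg19.

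Windows of 600 bp around midpoints were searched on both strands. A gap was a run of N of at least 1 kb. Fisher's exact and exact McNemar tests were two-sided, adjusted after Benjamini-Hochberg with a threshold of 0.05. The code was tested on simulated data. Named items were the 5 farthest, widest and earliest far peaks, the 5 largest groups, the 10 nearest genes with most far peaks and ties, up to 6 genes per list (SMAD7, tied with SMAD2, was added) and, per comparison, the 5 largest and 3 smallest odds ratios of 6-mers. Sequences were the 3 earliest ETS and AP-1 pairs, the farthest peak and the earliest CTCF, p53/p63 and CpG island-like centers among peaks not yet taken, chromosome 8 left out. Some items that these rules pick are not reported here. GAGTCA was named after its value was seen. Members and lists were chosen with earlier results of these data known. Python 3.11.15, scipy 1.17.1, pysam 0.24.0, samtools 1.23.1 and blastn 2.17.0 were used.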

Additional observations from a re-analysis of the deposited data

How the results depend on the processing

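No paired analysis was possible because the 3 samples were deposited as 1 pooled list, and for the same reason no replicate could be left out. The number of far peaks was 1112 with a limit of 100 kb, 547 with 200 kb and 685 at positions 1 to 13485 of the list, and within 1.5 times of 1811 under the other 3 rules. The comparisons of 6 properties with near peaks kept direction and call under the 4 alternatives in which each was run; list position was not run in the earlier part of the list, nor gap distance without peaks near gaps. Against downstream windows, AP-1, the ETS core and CCGGAA kept theirs under all 4. With 200 bp windows RUNX passed (odds ratio 1.42), TEAD did not (1.17) and the p53/p63 pair turned (1.16); upstream controls turned GRHL (0.907). In GC-limited pairs TEAD (1.14), the CTCF core (1.12) and SP/KLF (1.16) lost the call, and RUNX (0.936), FOX (1.13), the E-box (0.747) and GRHL (0.864) turned, while 52 and 65 6-mers passed. In that earlier part of the list RUNX turned (0.974), and FOX (0.737) and the E-box (1.26) lost the call. Against near peaks, AP-1 kept its call under all 5 alternatives. The CTCF core (0.861) and E-box (0.904) lost it and TEAD (0.956) and FOX (0.963) turned with 200 bp windows. A 100 kb limit brought past the threshold the ETS core (1.31), RUNX (1.19) and GRHL (1.41) and turned TEAD (0.997). In that earlier part of the list the ETS core passed (1.53), CCGGAA lost the call (0.737), and the p53/p63 pair (1.12) and GGAA runs (0.559) turned. Without peaks near gaps the ETS core passed (1.24). Among peaks of 50 to 55% GC the ETS core (0.899), TEAD (0.866) and FOX (0.995) turned and CCGGAA (0.935), the CTCF core (0.896), the E-box (0.805) and SP/KLF (0.726) lost the call. 6-mers higher and lower than at near peaks numbered 22 and 39 with 200 bp windows, 93 and 70 in the earlier part of the list, and 1 and 1 at 50 to 55% GC. Of the 8 6-mers named per comparison, 4 lost the call in GC-limited pairs against downstream windows, and against near peaks 7 lost it with 200 bp windows, 4 in the earlier part of the list, 2 with the 100 kb limit and 1 without peaks near gaps. No named 6-mer turned. The class of 50 to 55% GC was chosen after the data had been seen. The causes were not tested. Several of these alternatives also had fewer peaks or bases. Tandem GGAA runs gave no value where 1 side had none. The peaks were not compared with input coverage, copy number or mappability here, so the part of these in the large group at CCND1, the densities by distance and chromosome and the peaks near gaps was not tested.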

Other observations

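Some far peaks shared sequence with each other. In an alignment of the 600 bp windows of all far peaks (at least 100 aligned bp, E-value of at most 1e-10, a measure chosen after the data had been seen), 254 of 1811 (14.03%, 12.5 to 15.7%) aligned with another far peak and formed 22 families. The same measure gave 704 of 1755 downstream windows (40.1%, 37.8 to 42.4%) and 383 of 1950 near peaks (19.6%, 17.9 to 21.5%). The sets differ in size, and the differences were not tested. Peaks were joined into a family through any alignment, so members of 1 family need not all align with each other. Motifs were counted over the whole 600 bp, aligned or not. The largest family held 156 far peaks at a median identity of 78.0% over a median alignment of 155 bp. A p53/p63 pair was present in 22 of them (14.1%) and AP-1 in 82 (52.6%), against 3.04 and 43.6% of all far peaks. A family of 22 peaks on 14 chromosomes (median alignment 322 bp) held AP-1 in 13 and RUNX in 14. A family of 13 peaks on 7 chromosomes held an ETS core in all 13, FOX in 7 and AP-1 in 3. A family of 10 on 9 chromosomes held an ETS core and an E-box in all 10 and a CTCF core in 9. The pair of peaks on chromosome 2 described above for their distance from RPIA aligned at 73.3% identity. That alignment was 618 columns long, more than the 600 bp windows, because gaps count in all alignment lengths given here. Repeat annotation was not used here, so these families carry no names.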
